A study of Mus musculus with 4 samples.

Results

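ATF4 and 9 genes that it controls in amino acid stress (Atf4, Atf5, Ddit3, Chac1, Trib3, Asns, Psat1, Phgdh, Shmt2 and Ppp1r15a) were examined by RNA-seq in mouse embryonic stem cells (ESCs) depleted of CNOT1. The genes were taken by symbol from a table of 50559 genes, and all 10 were found and had enough counts to be tested. The cells were E14, an ESC line, kept on gelatin with leukemia inhibitory factor in a medium that holds added amino acids and mercaptoethanol. The study's methods describe its ESCs as carrying a tdTomato reporter under the promoter of the MERVL retroelement. The cells were transfected with a small interfering RNA against Cnot1 (siCnot1) or with a non-targeting one (siNT), both at 150 nM, and collected 48 h later, with 2 biological replicates per group and thus 4 libraries. The study's methods list 2 siRNAs against Cnot1, and which of them these libraries received was not given in the sources used here, so an effect of the siRNA itself and of losing CNOT1 cannot be told apart. CNOT1 is the scaffold of CCR4-NOT, the complex that shortens poly(A) tails of mRNAs. The comparison thus asks which transcripts change in poly(A)+ RNA, relative to the others, when that complex is depleted.

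The integrated stress response begins when a kinase phosphorylates the initiation factor eIF2 on its alpha subunit. GCN2 (Eif2ak4) does so when amino acids run short, PERK (Eif2ak3) when proteins misfold in the endoplasmic reticulum, PKR (Eif2ak2) on double-stranded RNA and HRI (Eif2ak1) on heme shortage or mitochondrial stress. Phosphorylated eIF2 blocks its exchange factor eIF2B, general translation falls, and Atf4 mRNA, held back by upstream open reading frames, is then translated better. ATF4 protein activates genes for amino acid synthesis and uptake, and with prolonged stress also Ddit3 (CHOP), Chac1 and Trib3. Because that control acts largely on translation, levels of Atf4 mRNA are not a measure of ATF4 protein, which was not measured here.

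The libraries held 32135824 to 32557440 counts on genes, and 3 counts corresponded to 0.0921 to 0.0934 CPM (counts scaled to the library total), a limit that covers counting error only. Cnot1 itself stood at 913 and 986 normalized CPM in siNT and at 185 and 192 in siCnot1, or -2.33 on the log2 scale (SE, the standard error, 0.0587, edgeR adjusted p = 2.37e-18). Here and below p-values come from the quasi-likelihood test of edgeR and were adjusted over all tested genes by the Benjamini-Hochberg method, 18144 where all 4 libraries were used. Normalized CPM are counts scaled to library size and to a factor (TMM) that evens out a few dominant genes. This factor was at least 1.032 in the siCnot1 libraries and at most 0.9637 in the siNT libraries. Higher and lower, rose and fell are thus relative to the other genes of the same library. Whether mRNA per cell or its capture by poly(A)+ selection differed between the groups was not tested. Of all tested genes 15.0% were called higher and 14.7% lower at an adjusted p of 0.05, the background for the marker counts here. The 9 ESC markers examined were all expressed, with a summed level of 6814 to 7042 normalized CPM in siNT and 5712 to 6066 in siCnot1, and 7 of them fell. That count was 3 with library totals and 4 with no filter on low counts, where 8.61% and 4.78% of all tested genes were called lower. With 1 library left out fewer ESC markers were called lower than with all 4 libraries, as over all tested genes. Marker genes of fibroblasts summed to 17.0 to 20.3 in siNT and 25.2 to 29.1 in siCnot1, with 4 of the 7 genes tested and 2 called higher. These were Col1a1, at 1.25 and 1.53 normalized CPM in siNT and 3.46 and 3.91 in siCnot1, and Pdgfrb, at 8.26 and 8.20 and at 15.8 and 12.4. Neither passed without siNT replicate 1, and Pdgfrb did not pass without siNT replicate 2. Col3a1 and Dcn were at 0 counts in every library. Primitive endoderm markers summed to 8.49 to 10.7 and 13.8 to 14.6, with 5 of 6 tested and 1 called higher, which did not pass without siNT replicate 1. Trophectoderm markers summed to 94.3 to 94.9 and 67.1 to 73.9, with 5 of 6 tested and 3 called lower, and germ layer markers to 29.5 to 29.8 and 18.4 to 21.1, with 4 of 6 tested and 2 called lower. With 1 library left out 2 or 3 of the trophectoderm and 1 of the germ layer markers were called lower. Whether these differences had a part in the values below was not tested, and in bulk RNA fewer cells of a type and less RNA per cell cannot be told apart.

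Of the 10 genes, 2 rose in siCnot1, the transcription factors Atf4 and Atf5, and none of the other 8 passed an adjusted p of 0.05 in edgeR. Among all 18144 tested genes, 15.0% were called higher and 14.7% lower at the same threshold. No member was called lower in edgeR, and DESeq2 and limma-voom also called 0 members lower. In edgeR 2 members were lower at an unadjusted p under 0.05. The share of all tested genes at that unadjusted threshold is not given here, so this count cannot be set against it. The median log2 fold change of the 10 genes was 0.070, beside 0.0084 over all tested genes, and their median size of change regardless of direction was 0.19, beside 0.26. Both siCnot1 libraries lay above both siNT libraries for 3 members, below them for 3, and overlapped with them for 4. Over all tested genes these separations were found in 32.7% (above) and 31.2% (below). The summed level of the 10 genes was 716 and 721 normalized CPM in siNT. In siCnot1 it was 688 and 729, below and above both controls.

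**Figure D1:**
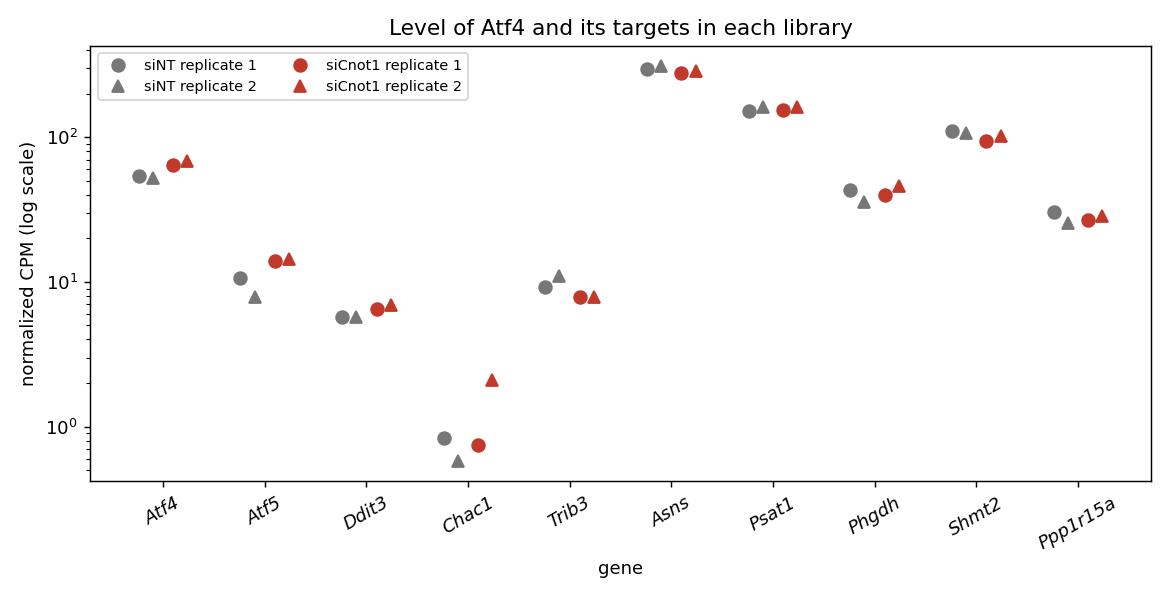
Normalized CPM (vertical, log scale) of each of the 10 genes in the 4 libraries; grey, siNT; red, siCnot1; circles, replicate 1; triangles, replicate 2. Atf4, Atf5 and Ddit3 have both siCnot1 points above both siNT points, Asns, Shmt2 and Trib3 have both below, and Chac1 has a single siCnot1 point (2.09) above the other 3 (0.574 to 0.836).

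Per kilobase of exon, the scale that allows levels of different genes to be compared, the order in siNT was Asns, Shmt2, Atf4, Psat1, Phgdh, Ppp1r15a, Trib3, Atf5, Ddit3 and Chac1, from 129 ± 4.41 normalized CPM per kb (SD, n = 2) in Asns to 0.449 ± 0.118 (SD, n = 2) in Chac1. Neighbours in this order did not overlap between libraries, except Trib3 at 4.94 ± 0.625 and Atf5 at 4.65 ± 0.979 normalized CPM per kb (SD, n = 2). In siCnot1 these neighbours stood in the opposite order and apart, with Atf5 at 7.09 ± 0.196 and Trib3 at 3.84 ± 0.0178 normalized CPM per kb (SD, n = 2), and the other 8 genes kept their ranks. In its siNT level per kb Asns exceeded 97.2% of all tested genes and Chac1 exceeded 22.7%. The 10 genes thus ranged from abundant biosynthetic enzymes to a transcript of under 1 normalized CPM in both controls. The exon length used for Psat1, 6229 bases, is that of all its listed exons together, so its level per kb is lower than for a shorter transcript form alone.

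Atf4, the bZIP transcription factor at the centre of the response, lies on chromosome 15 (80139385 to 80141746, plus strand, as the count table gives it). Its siNT libraries held 53.9 and 52.3 normalized CPM, and its siCnot1 libraries 63.9 and 68.1. Both siCnot1 libraries were above both controls, by more than the replicates of either group differed. The log2 fold change was 0.31 (SE 0.0770, edgeR adjusted p = 0.0031), a rise of 24.4% with a 95% confidence interval from 1.11-fold to 1.39-fold. Of all tested genes, 75.1% had a lower log2 fold change. When a library was left out, the log2 fold change of Atf4 stayed between 0.26 and 0.36, but with 3 libraries it passed only without siCnot1 replicate 1 (edgeR adjusted p = 0.0385). Without siNT replicate 1, siNT replicate 2 or siCnot1 replicate 2 the adjusted p from edgeR was 0.0725, 0.0800 and 0.109. In these smaller fits the share of all tested genes called higher also fell, to between 3.83% and 7.48%.

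Atf5, a bZIP factor related to ATF4 and itself induced through ATF4 and CHOP, lies on chromosome 7 (44461680 to 44466082, minus strand). Its level was 10.6 and 7.88 normalized CPM in siNT and 13.9 and 14.4 in siCnot1. The siCnot1 libraries were close to each other and above both controls, while the controls differed more. The log2 fold change was 0.61 (SE 0.147, edgeR adjusted p = 0.0028), or 1.53-fold with a 95% confidence interval from 1.24 to 1.88. Leaving out siNT replicate 2, the lower control, brought the log2 fold change to 0.41 (edgeR adjusted p = 0.119), and leaving out siNT replicate 1 raised it to 0.84 (adjusted p = 0.0365). Without siCnot1 replicate 1 or 2 the values were 0.63 and 0.58 (adjusted p = 0.0514 and 0.0829 from edgeR), and with no filter on low counts 0.60 (adjusted p = 0.0796). Exons of Atf5 share 82 bases with Nup62 and 82 with Il4i1b, both on the opposite strand. The libraries marked strand with dUTP, and whether the counting used it was not given, so reads of these genes may be mixed, and the part of such reads in the Atf5 values was not tested. Il4i1b held 3 and 0 counts in siNT and 6 and 7 in siCnot1. Nup62, at 177 normalized CPM in siNT and 187 in siCnot1, had a log2 fold change of 0.083 (edgeR adjusted p = 0.302).

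Ddit3 encodes CHOP, the C/EBP-family factor linked to cell death under prolonged stress (chromosome 10, 127126662 to 127132160, plus strand). It had 5.69 and 5.74 normalized CPM in siNT and 6.54 and 6.87 in siCnot1. Both siCnot1 libraries were above the controls, yet at 177 to 230 counts per library the difference did not pass the test, with a log2 fold change of 0.23 (SE 0.178, edgeR adjusted p = 0.364) and a 95% confidence interval from 0.909-fold to 1.51-fold. Its exons share 71 bases with Mars1 and 77 with Mbd6 on the opposite strand, neither of which was called. Shmt2 shares 32 exon bases with Ndufa4l2 and Ppp1r15a shares 11 with Tulp2, again on opposite strands.

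**Figure D2:**
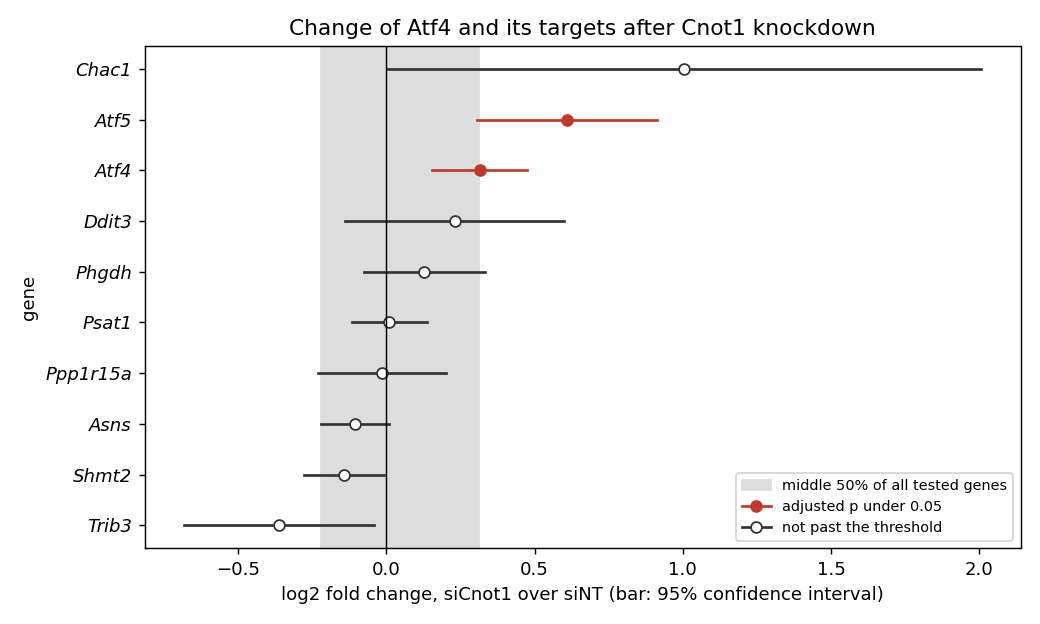
Log2 fold change of each gene (horizontal, siCnot1 over siNT; bars, 95% confidence interval; filled red, adjusted p under 0.05; open, not past it), with the middle 50% of all tested genes (-0.22 to 0.31) shaded. Atf4 and Atf5 are the filled points. The unadjusted interval of Chac1 also lies just above 0, and those of Trib3 and Shmt2 lie below it. Asns, Psat1 and Shmt2 have narrow intervals close to 0, while that of Phgdh reaches from -0.076 to 0.33.

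ATF4 binds C/EBP-ATF response elements, written TGATGNAAN. The letters were searched on both strands of RefSeq promoters (GRCm38.p6, 250 bases before to 50 after the start site), where 12 windows covered all 10 members. Of all 32851 such windows 3.95% held the element, and 3 members did, Asns, Chac1 and Trib3. Ppp1r15a held the cyclic AMP response element TGACGTCA, found in 1.79% of all windows. No window of a member held both motifs. The 4 sites are shown because they are the places where the promoter windows of the members hold letters that ATF4 or related factors recognize, each with the neighbouring bases in lower case and the element in capitals:
Asns (chr6:7693214-7693242, minus strand, 23 bases before the start site): cccagccacaTGATGAAACttcccgcacg
Chac1 (chr2:119351038-119351066, minus strand, opposite to the gene, 194 bases before the start site): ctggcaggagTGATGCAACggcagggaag
Trib3 (chr2:152344029-152344057, plus strand, opposite to the gene, just after the start site): cccgcccggcTGATGTAAAcctgagctaa
Ppp1r15a (chr7:45526263-45526290, minus strand, 12 bases before the start site): gcctctccggTGACGTCAgcacagcgcc
A match of letters does not show that a factor binds, and none of these 4 genes passed the test. The windows of Atf4 and Atf5, the genes that did, hold neither motif, which says only that these letters are not in these bases.

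Chac1, the glutathione-degrading enzyme often read as a marker of ATF4 activity, was the lowest of the 10 genes (chromosome 2, 119181723 to 119184807, plus strand, in the count table), with 26 and 18 counts in siNT and 25 and 70 in siCnot1. In normalized CPM these were 0.836 and 0.574 against 0.746 and 2.09, so siCnot1 replicate 1 lay between the controls and replicate 2 alone was high. The log2 fold change was 1.01 (standard error 0.483) with an unadjusted p of 0.0487 and an adjusted p of 0.125 from edgeR. In edgeR Chac1 was the only member to reach the cut-offs of the study, which 6.18% of all tested genes passed upward and 1.80% downward. These are an unadjusted p up to 0.05 and a log2 change of 1 or more in either direction. The study applied them with DESeq2. In the DESeq2 fit run here the log2 fold change of Chac1 was 1.005 with a larger standard error (0.629, DESeq2 adjusted p = 0.258). Its unadjusted p in that fit is not given here. The log2 fold change was below 1 in limma-voom (0.84), with the replicate block (0.88) and with no filter on low counts (0.9993). The edgeR result also depended on a single library. The log2 fold change was 0.076 without siCnot1 replicate 2 and 1.56 without siCnot1 replicate 1. Across the 11 alternatives in which it was tested, the adjusted p ranged from 0.0453 to 0.949. Its paralogue Chac2, not known as an ATF4 target, had a log2 fold change of 0.038 (edgeR adjusted p = 0.906).

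Trib3 encodes a pseudokinase that feeds back on ATF4 and CHOP (chromosome 2, 152179345 to 152185980, minus strand). Its libraries held 9.23 and 11.0 normalized CPM in siNT and 7.91 and 7.86 in siCnot1. Both siCnot1 libraries were below both controls, opposite to Atf4. The difference did not pass, with a log2 fold change of -0.36 (SE 0.154, edgeR adjusted p = 0.0817) and a 95% confidence interval from 0.624-fold to 0.971-fold before adjustment. Of 8 paralogues of the members, 2 rose and 3 fell, beside 15.0% and 14.7% of all tested genes. Ppp1r15b is counted both here and among the genes of eIF2 control below. Atf1 was among those that fell, with log2 fold changes from -0.61 to -0.44 when 1 library was left out. The higher calls were 0 in DESeq2 and with no filter on low counts and 1 in limma-voom, beside 11.5%, 4.30% and 14.7% of all tested genes. Without siCnot1 replicate 1 there was 1 higher call, and without any other single library 0. The lower calls were 2 with library totals, beside 8.61% of all tested genes in that setting. In some fits with 1 library left out they were fewer than with all 4 libraries. Trib1 fell (log2 fold change -0.50, edgeR adjusted p = 6.1e-04) and the low-expressed Trib2, at 1.86 and 1.34 normalized CPM in siNT and 2.72 and 3.53 in siCnot1, rose (0.96, adjusted p = 0.0162). With 1 library left out Trib1 passed in 2 of 4 fits and Trib2 in 1 of 4, and Trib2 did not pass in DESeq2.

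Ppp1r15a encodes GADD34, the inducible subunit of the phosphatase that removes the phosphate from eIF2 (chromosome 7, 45172341 to 45175692, minus strand). It had 30.4 and 25.6 normalized CPM in siNT and 26.7 and 28.7 in siCnot1. The groups overlapped, and the log2 fold change was -0.014 (SE 0.105, edgeR adjusted p = 0.941), with a 95% confidence interval from 0.852-fold to 1.15-fold. Its constitutive counterpart Ppp1r15b had 158 and 160 normalized CPM in siNT and 168 and 159 in siCnot1 (log2 fold change 0.040, edgeR adjusted p = 0.668).

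The 4 biosynthetic enzymes were the best measured of the targets, with 1123 to 9807 counts per library, and none passed the test. Asns, asparagine synthetase (chromosome 6, 7675165 to 7693209, minus strand), had 298 and 313 normalized CPM in siNT and 279 and 289 in siCnot1, a log2 fold change of -0.10 (SE 0.0559, edgeR adjusted p = 0.17). Both siCnot1 libraries were slightly below the controls, and the 95% confidence interval, from 0.858-fold to 1.01-fold, leaves out a rise of the size seen in Atf4. Shmt2, the mitochondrial enzyme that turns serine into glycine and a one-carbon unit (chromosome 10, 127352992 to 127358313, minus strand), was also lower in both siCnot1 libraries, at 94.3 and 103 normalized CPM against 111 and 107. Its log2 fold change of -0.14 did not pass (SE 0.0655, edgeR adjusted p = 0.11), with a 95% confidence interval from 0.825-fold to 0.996-fold. The cytosolic Shmt1 held 166 and 162 normalized CPM in siNT and fell to 131 and 143 in siCnot1, by 0.26 on the log2 scale (edgeR adjusted p = 0.0025). It did not pass with scaling by library totals, nor without siNT replicate 1, siNT replicate 2 or siCnot1 replicate 1.

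Phgdh and Psat1 encode the first enzymes of serine synthesis. Psat1 (chromosome 19, 15882487 to 15902423, minus strand) had 153 and 163 normalized CPM in siNT and 154 and 163 in siCnot1, a log2 fold change of 0.010 (SE 0.0609, edgeR adjusted p = 0.925) with a 95% confidence interval from 0.923-fold to 1.10-fold. The replicates of each group differed more than the groups did. Phgdh (chromosome 3, 98220487 to 98247285, minus strand) had 43.0 and 35.8 normalized CPM in siNT and 40.2 and 46.1 in siCnot1, again with overlapping groups (log2 fold change 0.13, SE 0.0991, edgeR adjusted p = 0.362). Its 95% confidence interval, from 0.948-fold to 1.26-fold, includes a rise of the size seen in Atf4. Phgdh has near-identical copies in the genome, and 12 genes in the count table match its transcripts over at least 150 bases at 95% identity or more. Each of the 12 held at most 21 counts in a library. How reads that match several genes were counted was not given, so these counts do not show whether Phgdh lost shared reads.

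**Figure D3:**
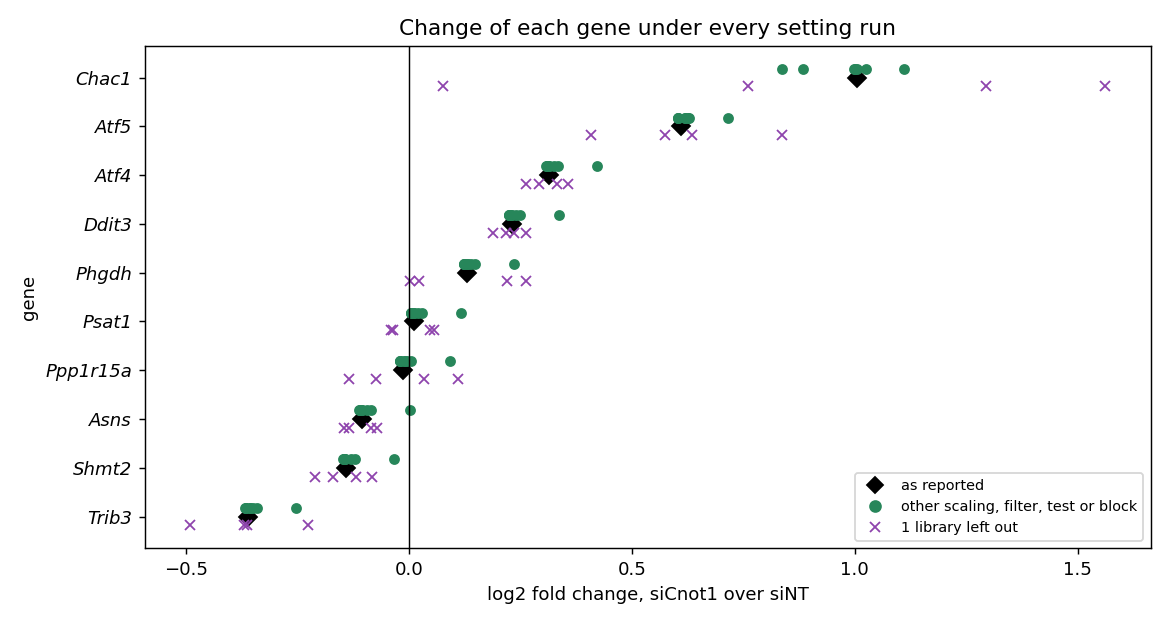
Log2 fold change of each gene (horizontal) as reported (black diamond), with another scaling, filter, test or replicate block (green circles) and with 1 library left out (purple crosses). Atf4 and Atf5 stay above 0 at every point, the points of Ppp1r15a and Psat1 fall on both sides of 0, and Chac1 spreads from 0.076 to 1.56.

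Upstream of ATF4, 1 of 17 tested genes of eIF2 control rose and 9 fell, beside 15.0% and 14.7% of all tested genes, with a median log2 fold change of -0.17. The gene that rose was Eif2ak3, which encodes PERK, with 47.3 and 46.7 normalized CPM in siNT and 61.8 and 55.9 in siCnot1 (log2 fold change 0.32, SE 0.0824, edgeR adjusted p = 0.0043). It did not pass without siNT replicate 1, siNT replicate 2 or siCnot1 replicate 1, nor with no filter on low counts. Eif2ak2, encoding PKR, fell by 0.34 on the log2 scale (edgeR adjusted p = 0.0174), a call lost with library totals, with no filter and in 3 of the 4 fits with 1 library left out. The largest falls were in subunits of eIF2 and eIF2B. Eif2s3x fell by 0.41 (edgeR adjusted p = 7e-06), Eif2s1, the subunit that is phosphorylated, by 0.37 (adjusted p = 1.7e-05) and Eif2b5, the catalytic subunit of eIF2B, by 0.36 (adjusted p = 7.6e-05). With library totals in place of TMM 5 of the 17 were lower, beside 8.61% of all tested genes in that setting. With 1 library left out fewer of the 17 were lower than with all 4 libraries, as over all tested genes. Phosphorylation was not measured.

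Of 11 tested amino acid transporters, listed here as linked to the ATF4 response, 6 rose and the other 5 did not pass. Over all tested genes 15.0% were called higher. The median log2 fold change of the 11 was 0.29. This list, like the others, was chosen with earlier results of these data known. Slc36a1, a lysosomal exporter of small amino acids, went from 15.3 and 12.8 normalized CPM in siNT to 22.8 and 22.7 in siCnot1 (log2 fold change 0.70, SE 0.117, edgeR adjusted p = 7.6e-05). Slc7a1, a carrier of arginine and lysine, went from 127 and 139 to 169 and 179 (0.39, edgeR adjusted p = 4.9e-05). Slc36a1 passed in each of the 13 settings run and Slc7a1 in all but that without siNT replicate 1. Slc43a1 rose by 0.54 (edgeR adjusted p = 0.0010) and Slc3a2, the heavy chain that pairs with Slc7a5 and Slc7a11, by 0.25 (adjusted p = 0.0016). Without siNT replicate 1 only 1 of the 11 passed, and without siNT replicate 2, siCnot1 replicate 1 and siCnot1 replicate 2 the counts were 4, 3 and 4. In the fit without siNT replicate 1, 3.83% of all tested genes were called higher.

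**Figure D4:**
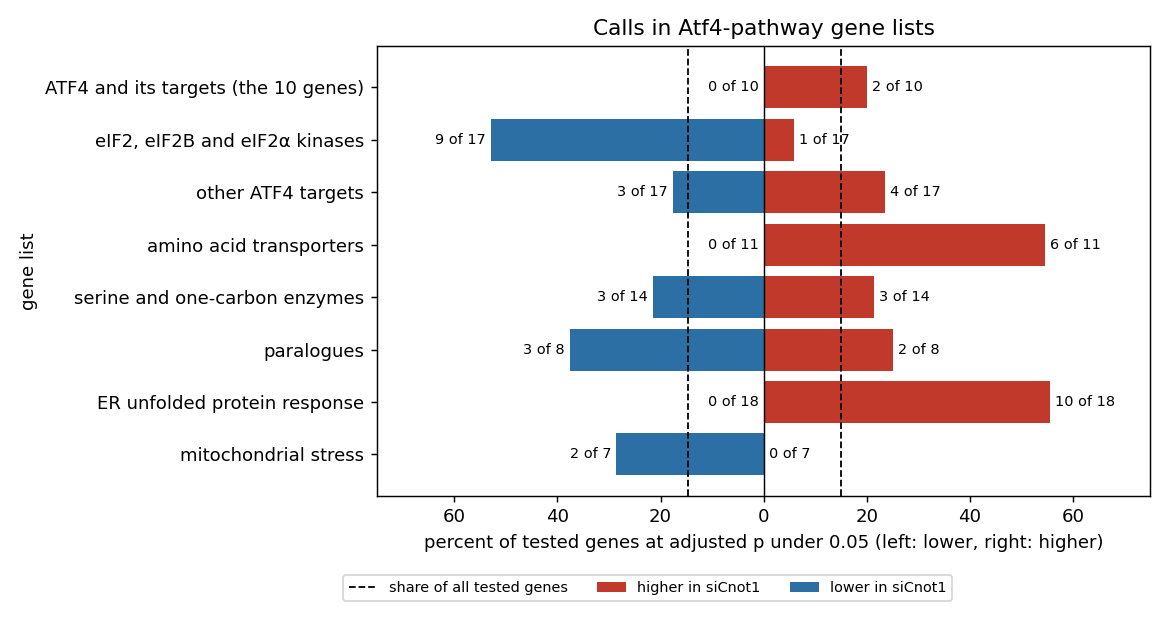
Percent of the tested genes of each list at an adjusted p under 0.05 in edgeR (red to the right, higher in siCnot1; blue to the left, lower), with counts beside the bars and dashed lines at 15.0% and 14.7%, the shares over all 18144 tested genes. The 10 members have 2 higher calls, transporters 6 of 11, the endoplasmic reticulum list 10 of 18, and eIF2 control 9 of 17 lower.

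Among 17 other tested ATF4 targets, 4 rose and 3 fell, beside 15.0% and 14.7% of all tested genes. Gdf15, a secreted stress factor, went from 1.58 and 1.79 normalized CPM in siNT to 5.46 and 4.12 in siCnot1 (log2 fold change 1.51, SE 0.262, edgeR adjusted p = 1.2e-04). Atf3, another stress-induced bZIP factor, rose from 1.09 and 1.28 to 2.78 and 2.30 (1.10, edgeR adjusted p = 0.0122), and passed in none of the fits with 1 library left out, while Gdf15 passed in all of them except that without siNT replicate 1. Sesn2, a leucine sensor that restrains mTORC1, rose by 0.31 (edgeR adjusted p = 0.0011) and Nfe2l1, a regulator of proteasome genes, by 0.37 (adjusted p = 2.6e-05). With 1 library left out the log2 fold change lay between 0.24 and 0.37 in Sesn2 and between 0.32 and 0.41 in Nfe2l1. Gdf15, Atf3 and Sesn2 are targets of other stress pathways too, p53 among them for Gdf15 and Sesn2. Those that fell were Ndrg1, Vegfa and Ddit4, which also respond to low oxygen, and in all 3 the controls differed from each other. Ndrg1 had 17.0 and 9.54 normalized CPM in siNT and 7.43 and 6.46 in siCnot1 (log2 fold change -0.93, edgeR adjusted p = 7.2e-04), and Ddit4 had 106 and 60.1 against 58.6 and 57.8 (-0.51, adjusted p = 0.0073). Vegfa had 62.5 and 48.9 in siNT and 42.8 and 36.8 in siCnot1 (log2 fold change -0.48, edgeR adjusted p = 9.2e-04). With 1 library left out these values came as near to 0 as -0.46 for Ndrg1, -0.30 for Vegfa and -0.053 for Ddit4. Without siNT replicate 1, without siCnot1 replicate 2 or with no filter on low counts, none of the 3 passed in edgeR. With library totals 8 of the 17 were called higher, beside 22.0% of all tested genes in that setting. With 1 library left out fewer of the 17 were called higher than with all 4 libraries, as over all tested genes.

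The list of remaining enzymes covers mainly serine, glycine, one-carbon and transsulfuration metabolism, with some for proline, alanine or other products. Of its 14 genes 3 were called higher and 3 lower, beside 15.0% and 14.7% of all tested genes. Cbs and Cth, which carry homocysteine to cysteine, both rose. Cbs had 14.5 and 13.1 normalized CPM in siNT and 25.8 and 26.7 in siCnot1 (log2 fold change 0.93, SE 0.110, edgeR adjusted p = 1e-06), and Cth rose by 0.27 (adjusted p = 0.0055). Mthfd1l, a mitochondrial enzyme of the one-carbon pathway, fell from 110 and 112 to 67.9 and 70.1 (log2 fold change -0.68, SE 0.0656, edgeR adjusted p = 5.1e-08). Cbs and Mthfd1l passed in each of the 13 settings run. The other calls were Gldc, which rose by 0.21 (edgeR adjusted p = 0.0160), and Mthfd1 and Shmt1, which fell. Cth, Gldc and Mthfd1 did not pass with no filter on low counts, and Mthfd1 also not with library totals. With 1 library left out the log2 fold change was 0.21 to 0.32 for Cth, 0.15 to 0.27 for Gldc and -0.23 to -0.16 for Mthfd1. Shmt1 is counted both here and among the paralogues. With library totals 5 of the 14 were higher and 1 lower, beside 22.0% and 8.61% of all tested genes in that setting. With 1 library left out fewer were called in each direction than with all 4 libraries, as over all tested genes.

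The list for the unfolded protein response of the endoplasmic reticulum covers genes of its ATF6 and XBP1 branches, which stand beside that of PERK. Of its 18 tested genes 10 rose and 8 were not called, beside 15.0% of all tested genes called higher. The median log2 fold change was 0.20. Log2 fold changes of the 18 genes ranged from -0.068 to 0.36. Calr rose by 0.34 (edgeR adjusted p = 1.5e-04), Hspa5, the chaperone BiP, by 0.31 (adjusted p = 1.6e-04), Hsp90b1 by 0.29 (adjusted p = 4.8e-04) and Pdia4 by 0.27 (adjusted p = 0.0011). With no filter on low counts 4 of the 18 were called, beside 4.30% of all tested genes called higher in that setting. With 1 library left out fewer of the 18 were called than with all 4 libraries, as over all tested genes. Of 7 genes of mitochondrial stress, 2 fell, beside 14.7% of all tested genes. They were the chaperonins Hspd1 (log2 fold change -0.23, edgeR adjusted p = 0.0019) and Hspe1 (-0.30, adjusted p = 0.0012). With 1 library left out the log2 fold change lay between -0.29 and -0.18 in Hspd1 and between -0.42 and -0.18 in Hspe1. Both lost their call in some of these fits. With library totals Hspd1 was lost and 3 others of the 7 were called higher, beside 22.0% of all tested genes in that setting.

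**Figure D5:**
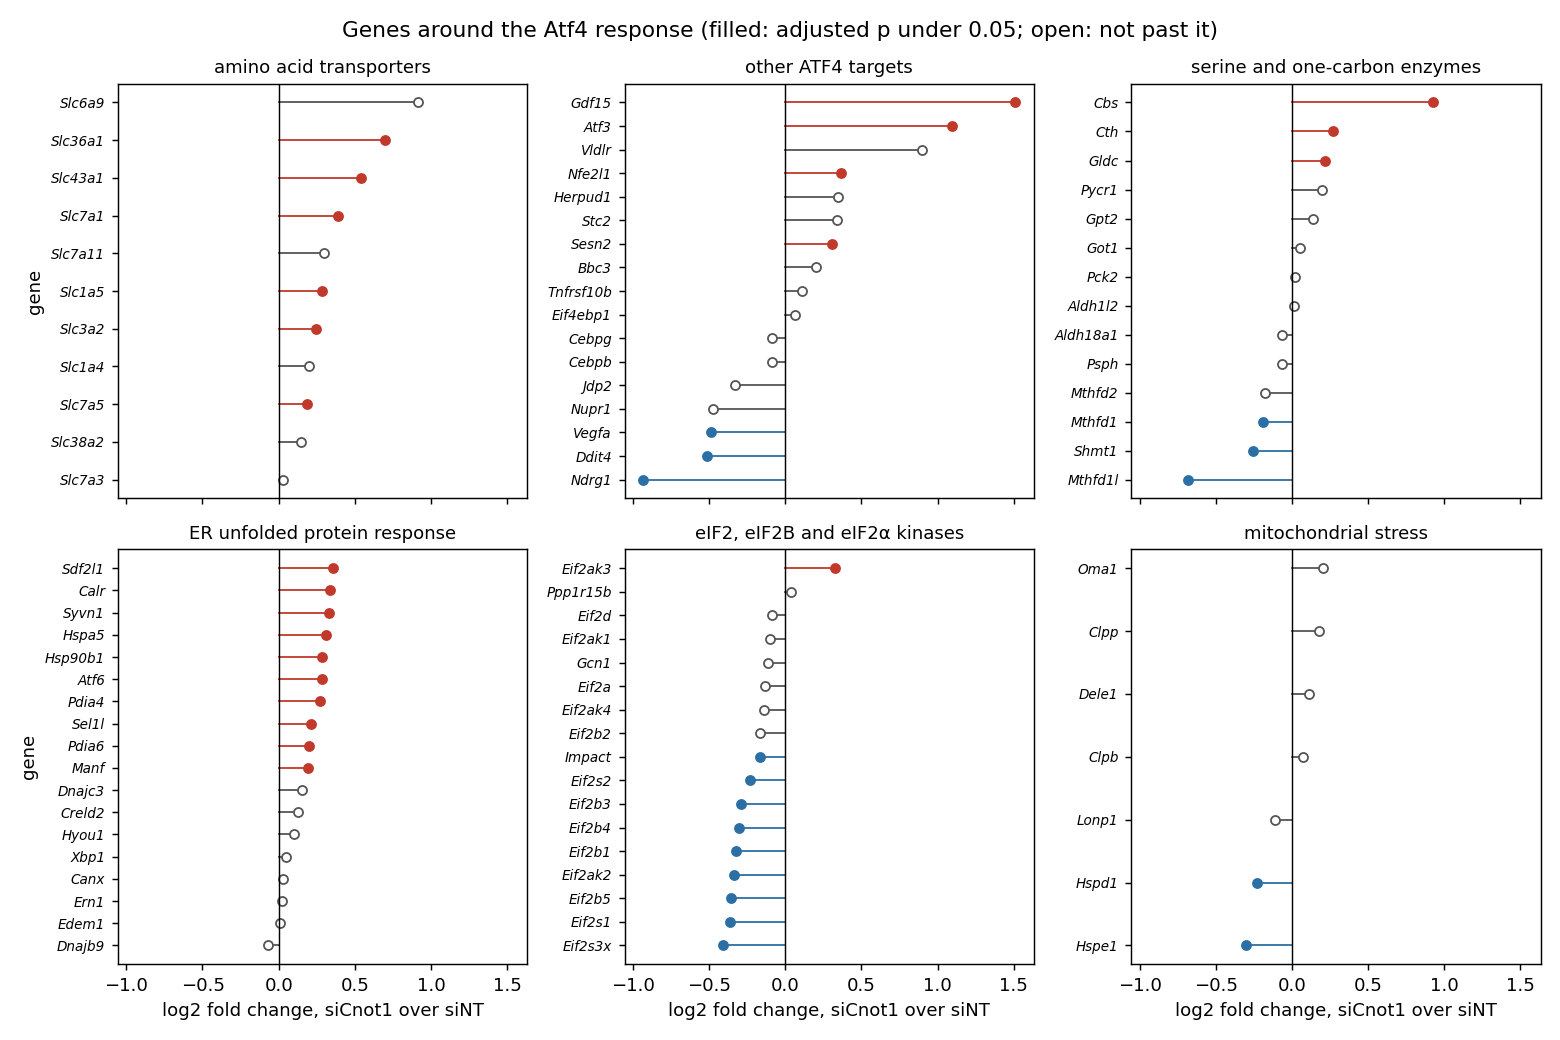
Log2 fold change (horizontal, siCnot1 over siNT) of the tested genes in 6 lists around the ATF4 response, filled red or blue at an adjusted p under 0.05 and open otherwise. Transporters lie above 0 throughout, the list of mainly serine and one-carbon enzymes on both sides, and 15 of 17 genes of eIF2 control below 0.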

How the data were processed

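Poly(A)+ RNA of 4 ESC libraries was sequenced by the authors, who deposited raw counts per gene without normalization. The submitters' processing notes list fastp 0.19.4, HISAT2 2.2.1, DESeq2 1.40.2 and mm10. The counting program and its strand setting were not given in the sources used here. Only 2.69% of 48775 nuclear genes start at their GRCm38.p6 position, so gene positions are printed as deposited and their build is unnamed; promoter positions are GRCm38.p6.

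Genes passing filterByExpr (minimum count 10) were tested with edgeR 4.0.16 (TMM, quasi-likelihood, Benjamini-Hochberg over 18144 genes) in R 4.3.3. Standard errors are the log2 fold change over the square root of F. Fits were tested on simulated data with 200 changed genes. At a 1.3-fold change 57 of the 200 were recovered with 2 false calls, and at a 2-fold change 125 with 9. Far more genes were called in the data (2719 higher and 2668 lower), so these recovery rates need not hold there. Replicates differed beyond sampling noise (chi-square per degree of freedom 6.57 in siNT and 5.57 in siCnot1) and were kept as separate samples. Alternatives were 3 other scalings, 2 other filters, DESeq2 1.42.0, limma-voom 3.58.1, the replicate block and leaving out each library. Near-identical transcripts were sought with blastn 2.17.0 in GENCODE M21. The members and lists were chosen with earlier results of these data known. Named besides members, Cnot1 and Atf1 were up to 5 genes of eIF2 control and of the paralogues. From other lists up to 4 with the smallest adjusted p per direction were named.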

Additional observations from a re-analysis of the deposited data

How the results depend on the processing

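Cnot1 passed in all 13 settings, and no member was called lower in any of them. Atf4 passed in 10 settings and Atf5 in 9. With no filter on low counts, 1 member was called higher, with 1303 genes higher and 1450 lower over the whole table. Library totals in place of TMM moved the median log2 fold change of all tested genes to 0.116 and left 1563 lower, 71.9% of the calls then being higher in place of 50.5%; relative to that shift the 0.42 of Atf4 and the 0.72 of Atf5 are close to the TMM values. Requiring 1 CPM or more in 2 libraries left 729 genes higher and 186 lower at the study's threshold, and Chac1 untested. With 1 library left out, 0 to 2 members were called higher, against 743 to 1439 genes higher and 871 to 1463 lower in all. The sign of small values changed for Asns with library totals (0.0021), for Ppp1r15a with upper-quartile scaling (0.0050) and library totals (0.092), and with 1 library left out for Psat1 (-0.041 to 0.056) and Ppp1r15a (-0.14 to 0.11). The cause was not tested. By construction, library totals shift all genes alike and the fits without a library hold 3. With the replicate number as a block, the same 2 members were called higher (Atf4 0.31, Atf5 0.62) and 13.9% and 13.4% of all tested genes were called higher and lower. Over all tested genes, libraries with the same number did not deviate together from their group means (correlation -0.0057). With 2 libraries per group, this value cannot tell whether libraries of the same number were prepared together. Chac1 rests on 18 to 70 counts per library.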
